A study of Mus musculus with 2 samples.

Results

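The kinesin motor genes were examined in hippocampal RNA of mice fed astaxanthin and of control mice. They were taken as every gene whose array probe carries a RefSeq accession that maps to a mouse symbol beginning with Kif and a digit. This gave 28 genes read by 48 probes, out of 16535 genes with a symbol on the arrays. Of the 28, 22 were measured, meaning that a probe stood well above background in all 4 channels (each RNA on each array), as for 13318 genes with a symbol. Where several probes of a gene did so, the brightest gave its value.

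The RNA came from the hippocampus of male C57BL/6J mice, 11 weeks old and weighing 26 to 28 g at the start. After 1 week on standard chow they were fed for 4 weeks a powdered diet with 0.5% (w/w) of a powder containing 2% astaxanthin from the alga Haematococcus pluvialis (ASX), or a diet with 0% of it and placebo powder (control). Both RNAs were hybridised together on 2 two-colour Agilent arrays, with ASX in Cy5 and control in Cy3 on array 1 and the dyes exchanged on array 2. Each array title gives 4 mice, and nothing in the labels says how their RNA was combined or whether both arrays hold the same extracts. The arrays were therefore treated as a dye swap of the same RNA, that is 1 replicate of the diet comparison, and the diet was not tested. Values are log2 ratios of ASX over control on each array, their mean and the SD between the arrays (n = 2), and the number of arrays limits their precision.

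Kinesins are motor proteins that hydrolyse ATP to walk along microtubules or to shorten them. In neurons, which no longer divide, they carry vesicles, mitochondria, receptors and RNA along axons and dendrites. In dividing cells another set of kinesins builds the spindle, moves chromosomes and completes cell separation. The adult hippocampus holds both kinds of cell, since progenitors in the subgranular zone of the dentate gyrus go on dividing among a large majority of neurons and glia, and the study's title names adult neurogenesis. By known role the 28 genes comprised 10 mitotic, 13 neuronal transport and 3 ciliary kinesins and 2 others.

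Kinesin transcripts differed little between the diets. None of the 22 measured genes was at least 1.5-fold higher in ASX on each array, as 0.0636% of all 23603 genes and transcripts were, and none was at least 1.5-fold lower on each, as 0.0212% were. The mean of the arrays lay within 1.2-fold for all 22, as for 98.6% of genes with a symbol. The lowest was the cytokinesis motor Kif20a, with a mean log2 ratio of -0.19, a ratio of 0.875, and the highest was Kif21b, a dendritic motor that also slows microtubule growth, with 0.09. The 22 had a median of -0.02. That of genes with a symbol was -0.02, and that of all genes and transcripts -0.0042.

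The arrays shared a sign for 10 of the 22 genes. Both arrays put 8 kinesins below 0, namely Kif20a, Kif4, Kif11, Kif23, Kif18a, Kif1c, Kif5b and Kif13a, and 2 above it, Kif1b and Kif2a. The shares below and above 0 on both arrays were 23.0% and 22.2% of all genes and transcripts, and 26.4% and 14.3% of genes with a symbol. The other 12 kinesins changed sign between the arrays, so the same dye was brighter on both: 7 were brighter in Cy5 on both arrays, as 28.7% of genes with a symbol were, and 5 in Cy3, as 30.6% were.

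**Figure D1:**
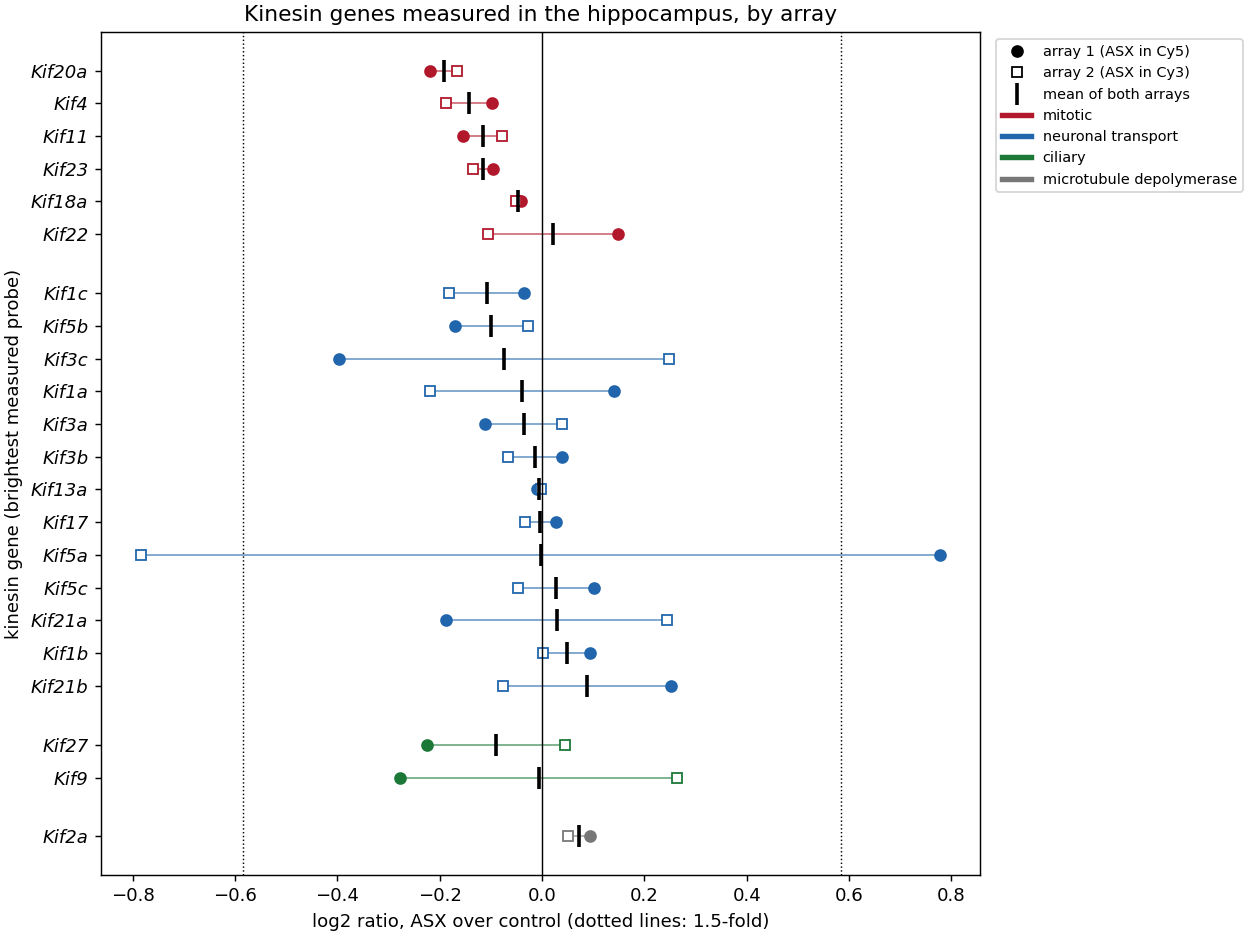
Log2 ratios of ASX over control for the 22 measured kinesin genes, grouped by role, with array 1 as filled circles, array 2 as open squares and their mean as a vertical bar; dotted lines mark 1.5-fold. The mitotic genes other than Kif22 sit to the left of 0 on both arrays, while Kif5a spans 0.78 to -0.78.

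Most mitotic kinesins with a promoter window share a feature that the array values do not use. Many genes transcribed at mitosis carry a cell cycle genes homology region (CHR, letters TTTGAA), to which the MuvB complexes bind, near the start of transcription, and often a CCAAT box, the motif of the factor NF-Y, before it. RefSeq promoter windows of GRCm38.p6, from 250 bases before to 50 after a start, were in the table used for 24 of the 28 kinesin genes. No window was available for the mitotic gene Kif20a or for the transport genes Kif21b, Kif5a and Kif5b. TTTGAA on either strand was found in 7 of the 9 mitotic genes with a window (Kif11, Kif15, Kif18b, Kif22, Kif23, Kif2c and Kif4) in 1 of the 10 neuronal transport genes (Kif1a) and in 1 of the 3 ciliary genes (Kif27). It occurs in 20.2% of all 27025 genes with a window, and in 17.9% of all windows. Windows with both TTTGAA and CCAAT, which can share a T where one ends and the other begins, belonged to 5 of 9 mitotic genes, 0 of 10 transport genes, 1 of 3 ciliary genes (Kif27) and 7.97% of all genes.

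The promoters below are shown because they place both motifs side by side in 4 mitotic genes measured here, with Kif5c as a transport gene in which neither was found. Each runs 5′ to 3′ from 100 bases before the start to 30 after it, and capitals mark TTTGAA or its reverse complement TTCAAA (CHR), and ATTGG, the reverse complement of the CCAAT box. In Kif11, Kif22, Kif23 and Kif4 an ATTGG lies before the TTTGAA or TTCAAA, which begins 19 and 17 bases before the start in Kif11 and Kif22 and at bases 3 and 20 after it in Kif23 and Kif4. They lie at chr19:37376282-37376411 (plus strand) for Kif11, chr9:61946770-61946899 (minus) for Kif23, chrX:100625965-100626094 (plus) for Kif4, chr7:127042391-127042520 (minus) for Kif22 and chr2:49619186-49619315 (plus) for Kif5c.
Kif11: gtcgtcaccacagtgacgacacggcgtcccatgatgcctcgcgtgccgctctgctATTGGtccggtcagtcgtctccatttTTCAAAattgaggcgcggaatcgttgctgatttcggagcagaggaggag
Kif23: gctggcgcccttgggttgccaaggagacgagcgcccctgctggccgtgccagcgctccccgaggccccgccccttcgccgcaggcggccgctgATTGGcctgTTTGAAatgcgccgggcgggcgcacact
Kif4: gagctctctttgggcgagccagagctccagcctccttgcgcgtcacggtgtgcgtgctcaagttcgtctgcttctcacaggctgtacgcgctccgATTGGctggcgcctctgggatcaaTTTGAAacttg
Kif22: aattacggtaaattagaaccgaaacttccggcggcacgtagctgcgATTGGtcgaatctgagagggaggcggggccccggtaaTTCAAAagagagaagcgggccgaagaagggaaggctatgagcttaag
Kif5c: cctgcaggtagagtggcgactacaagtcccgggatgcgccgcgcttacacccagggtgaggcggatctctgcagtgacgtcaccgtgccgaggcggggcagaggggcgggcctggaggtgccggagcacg

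TTTGAA lay within 50 bases of the start in 6 of the 9 mitotic genes, beside 5.72% of all genes. It did so in 1 of the 10 transport genes, Kif1a, 44 bases before the start, and in 0 of the 3 ciliary genes. Kif18a, a mitotic gene, had neither motif in its window, and Kif2b, a depolymerase of the spindle, had CCAAT alone. A match is a run of letters and not a shown binding site.

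**Figure D2:**
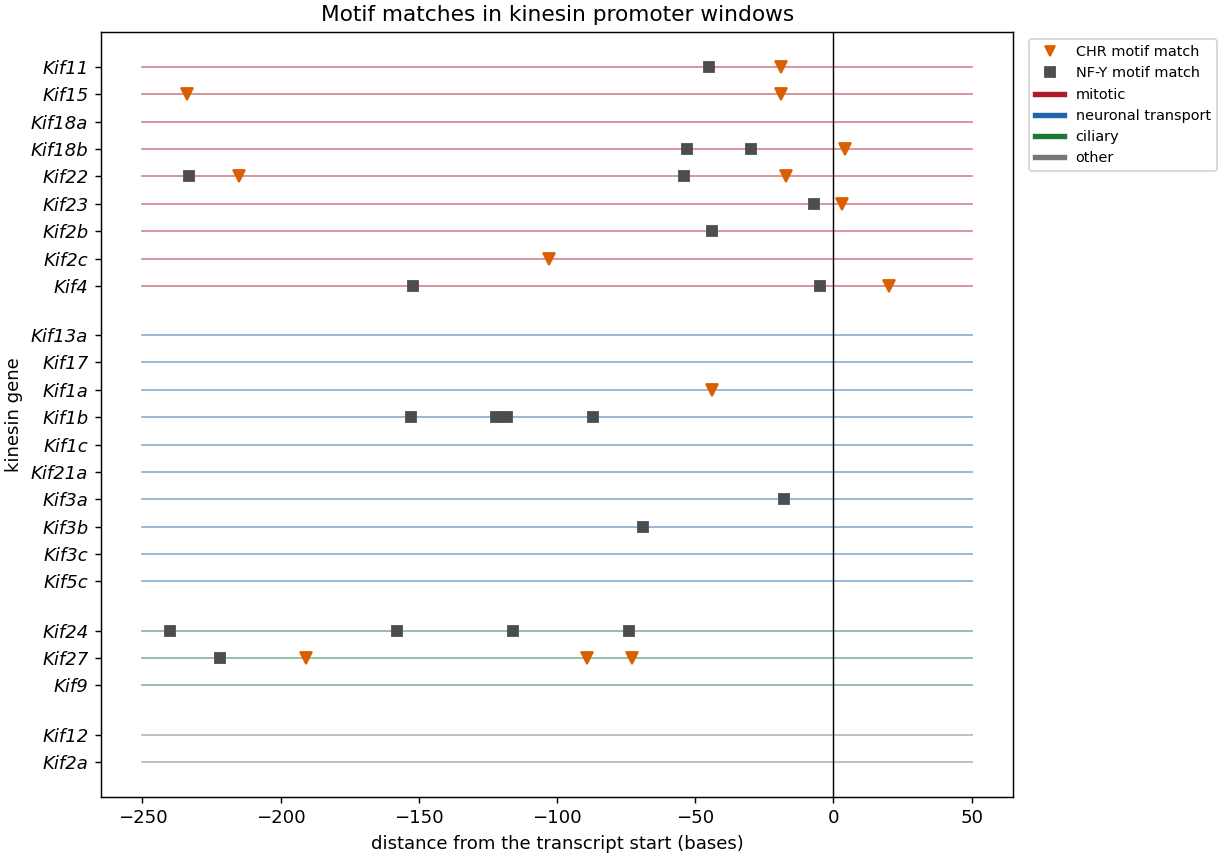
Positions of CHR (triangles) and NF-Y (squares) motif matches, both strands, against distance from the transcript start in bases, for the 24 kinesin genes with a RefSeq promoter window, grouped by role. CHR matches gather close to the start in mitotic genes such as Kif11 and Kif23. Kif1a holds the only one among the 10 transport genes, 44 bases before the start.

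Mitotic kinesins had the lowest median of the roles in the mean of both arrays, but not on array 1, where the ciliary kinesins had -0.25, nor with median centring, where the transport kinesins had -0.18. Of the 10 on the arrays, 6 were measured, and 5 of the 6 were below 0 on both arrays, beside 26.4% of genes with a symbol. These 5 were dim, with a mean log2 brightness of 6.46 to 7.32 beside a median of 10.3 over genes with a symbol. Among the 1711 genes with a symbol in that brightness range 32.4% were below 0 on both arrays. The part of dim signal in the mitotic values was not tested. In tissue RNA, fewer dividing cells and less transcript per cell cannot be told apart.

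Kif20a, which brings the chromosomal passenger complex to the spindle midzone for cytokinesis, had normalized log2 levels of 7.09 in ASX and 7.31 in control RNA on array 1, and 6.73 and 6.89 on array 2. Its log2 ratio was -0.22 on array 1 and -0.17 on array 2, a mean of -0.19 ± 0.04 (SD, n = 2 arrays). Kif4, a chromosome-bound motor that organises the spindle midzone, had 7.10 against 7.19 on array 1 and 6.81 against 7.00 on array 2. The ASX RNA was thus the lower one on both arrays for both genes. Their mean ratios stand beside a range of -0.19 to 0.11 between the 5th and 95th percentiles of the 1711 equally dim genes, so that Kif20a lay just below its lower end and Kif4, at -0.14, inside it.

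Kif11, the motor that pushes spindle poles apart, had ratios of -0.15 and -0.08 (mean -0.12 ± 0.05). Kif23, the motor of the centralspindlin complex at the midbody, had -0.10 and -0.13 (mean -0.12 ± 0.03). Kif18a, which damps chromosome movement at the metaphase plate, had -0.04 and -0.05, the smallest of the 5. All 3 were lower in ASX RNA on each array, by amounts near the error of a single spot. That error was an SD of 0.09 on 1 array, the median over 40 measured probes of similar brightness that are printed in 10 spots, while each kinesin probe has 1 spot. The Kif18a spot read 262 and 306 intensity units for ASX and control on array 1 but 112 and 115 on array 2, so its brightness differed more between arrays than between diets.

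Kif22, a chromosome-arm motor of the metaphase plate, was the bright exception, with a mean log2 brightness of 11.0. It had 0.15 on array 1 and -0.11 on array 2, opposite signs and a mean of 0.02 ± 0.18. RefSeq lists a Kif22 and a Kif4 pseudogene, and whether their transcripts reach these probes was not tested.

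Kif4 and Kif23 each had a second measured probe. The other measured Kif4 probe had -0.31 and 0.08 (mean -0.12 ± 0.27), and that of Kif23 had -0.11 and 0.21 (mean 0.05 ± 0.23). Neither had the same sign on both arrays. Counting every measured probe, 5 of 8 mitotic probes were below 0 on both arrays and 0 above. For neuronal transport kinesins 6 of 26 probes were below and 7 above. Over all 39 kinesin probes 11 were below and 10 above.

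No probe of Kif15, Kif18b, Kif2b or Kif2c stood well above background in any channel. Kif15 works beside Kif11 in spindle assembly, Kif18b trims astral microtubules, and Kif2c, known as MCAK, removes tubulin at centromeres. Their spots read 73 to 99 intensity units in all 4 channels, and no fold is given for them.

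A list of 24 other cell division genes was drawn up from textbook roles, with earlier results of these data known. It was also centred below 0, and it too was dim, with a median log2 brightness of 7.97. Its 16 measured members had a median of -0.08, -0.03 on array 1 and -0.11 on array 2. Genes with a symbol had medians of -0.03 and -0.02 on these arrays, and the dim ones -0.02 and -0.05. On array 1 the list thus lay close to genes with a symbol. Both arrays put 8 of the list below 0, beside the 26.4% of genes with a symbol and 32.4% of the dim ones, and 0 above it. None passed 1.5-fold. Ccnb1 and Ccna2, which encode cyclins of mitotic entry, had means of -0.18 and -0.14, with most of it on array 2 (-0.30 and -0.27, against -0.07 and -0.0081 on array 1). Ect2, the activator of RhoA at the cleavage furrow, had 0.08 and -0.35, and Ccnb2 had -0.01 and -0.24. Among the mitotic kinesins the share from each array was more even, with medians of -0.10 on array 1 and -0.12 on array 2.

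Neuronal transport kinesins, all 13 of which were measured, centred on 0. Their median log2 ratio was -0.0061, 0.03 on array 1 and -0.03 on array 2. Of the 13, 3 were below 0 on both arrays and 1 above, beside 26.4% and 14.3% of genes with a symbol, and 9 changed sign. The median of the mitotic kinesins minus that of the transport kinesins was -0.11 (-0.12 on array 1 and -0.09 on array 2), but it was 0.16 when each array was centred on its median without loess. That centring leaves trends with brightness in place: it set the median of the 1711 dim genes at 0.07 and that of all genes with a symbol at -0.16. The mitotic median minus that of the dim genes was -0.08 by loess and -0.09 by median centring, and over all settings it ranged from -0.22 with the scanner's ratios to -0.03 with no filter on dim probes. The 6 mitotic genes were dim except Kif22, while the 13 transport genes were mostly bright. Role and brightness therefore cannot be told apart in this difference.

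**Figure D3:**
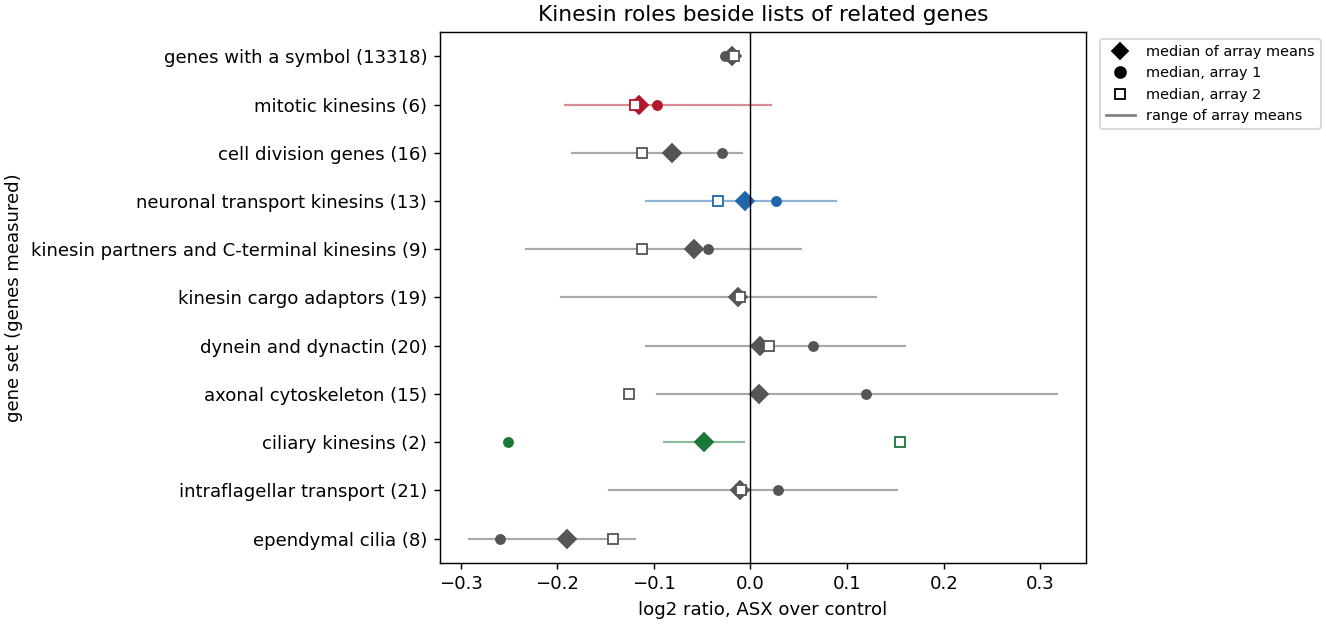
Median log2 ratios of ASX over control for kinesin roles and related gene lists (diamonds: median of the array means; circles: array 1; open squares: array 2; lines: lowest to highest gene), with the number of genes measured in brackets. Mitotic kinesins and cell division genes lie left of 0 on both arrays, at -0.12 and -0.08. On array 1 the cell division genes lie close to all genes with a symbol. Neuronal transport kinesins lie at -0.0061.

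The conventional kinesin heavy chains Kif5a, Kif5b and Kif5c, of which the first and last are enriched in neurons, each had a very bright probe and a less bright one. Kif5a at its brightest probe had normalized log2 levels of 17.7 in ASX and 16.9 in control RNA on array 1, and of 16.5 and 17.3 on array 2. Its ratios of 0.78 and -0.78 cancel in the mean (-0.0027 ± 1.1): the RNA in Cy5 was the higher one each time. Of 129 genes with a symbol and a brightness above 16, 117 were likewise brighter in Cy5 on both arrays, so this probe gives no direction for the diet. Kif5c, the other such member, had 0.10 and -0.05.

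Kif5b, the heavy chain of all tissues, had -0.17 and -0.03 at its bright probe (mean -0.10 ± 0.10) and 0.12 and 0.01 at the other. The less bright probes of Kif5a and Kif5c also lay above 0 on both arrays, with 0.28 and 0.05 for Kif5a and 0.29 and 0.13 for Kif5c, whose mean of 0.21 ± 0.12 was the highest of any kinesin probe. The probes of Kif5b thus differed in sign and those of Kif5c in size, while for Kif5a the brighter probe gave no direction. Taking the brightest probe gives Kif5a a mean of -0.0027, where the other has 0.17.

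Of the 12 kinesin genes with at least 2 measured probes, 9 had a higher ratio at the next brightest probe than at the brightest, as 45.5% of 4549 such genes did. The absolute difference between these probes had a median of 0.12, beside 0.05 over all such genes, and 7 of the 12 had the same sign at both, as 64.5% of all did.

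Kif1a, which carries synaptic vesicle precursors and dense-core vesicles down axons, had 0.14 and -0.22. Kif1b, a motor of mitochondria and synaptic vesicle precursors, was read by 4 measured probes, all with means above 0, from 0.05 to 0.18; its brightest had 0.09 and 0.0016, the next 0.17 and 0.18, and the others 0.13 and -0.04, and 0.03 and 0.16. Kif1c, a relative that moves dense-core vesicles, had -0.03 and -0.18 (mean -0.11 ± 0.10) and, at a dim probe, 0.07 and -0.07. At the brightest probes the arrays thus shared a sign for Kif1b, above 0, and Kif1c, below it, but not for Kif1a, and 1 dimmer probe each of Kif1b and Kif1c was split.

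**Figure D4:**
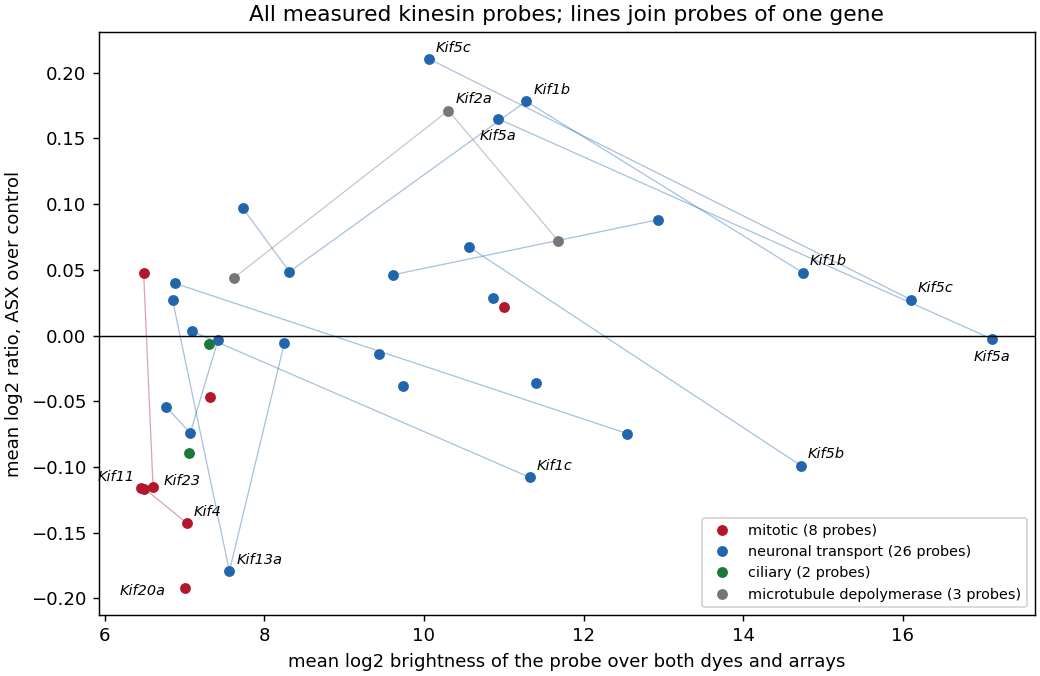
Mean log2 ratio of ASX over control against mean log2 brightness for the 39 measured kinesin probes, coloured by role, with lines joining probes of one gene; an unlabelled Kif4 probe lies on the Kif11 point. Probes of Kif5c, Kif1b, Kif2a and Kif5a at a brightness of 10 to 11 have the highest ratios, up to 0.21, and brighter probes of the same genes lie nearer 0.

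Kif3a and Kif3b form, with the adaptor Kifap3, the heterotrimeric motor of axons and of cilia. Kif3a had -0.11 and 0.04, Kif3b 0.04 and -0.07, and Kifap3 -0.09 and 0.06. None of the 3 subunits kept a sign. Kif3c, the neuronal partner of Kif3a, had -0.40 and 0.25 (mean -0.07 ± 0.46), brighter in Cy3 on both arrays.

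Kif17, which carries NMDA receptors into dendrites, had 0.03 and -0.03, and its other 2 probes had means of -0.07 and -0.05, below 0 on both arrays. Kif13a, a motor of endosomes and Golgi-derived vesicles, had -0.0095 and -0.0027 at its brightest probe. Its next probe, however, had -0.22 and -0.14 (mean -0.18 ± 0.06) and its dimmest 0.02 and 0.03. Kif21a, an axonal motor at sites of microtubule growth, had -0.19 and 0.24, and Kif21b 0.25 and -0.08. For these 4 genes, too, no direction held over arrays and probes alike.

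Kif2a, a depolymerase that prunes axon branches, was placed outside the mitotic role, unlike Kif2b and Kif2c, with earlier results of these data known. This placement bears on the mitotic counts, since 0 of the 6 measured mitotic genes lay above 0 on both arrays. Kif2a was above 0 at every probe. Its 3 measured probes lay there on both arrays, with 0.09 and 0.05 at the brightest (mean 0.07 ± 0.03), 0.28 and 0.06 at the next and 0.06 and 0.03 at the dimmest. The median spot SD on 1 array was 0.04 for probes brighter than the dim mitotic ones. The mean at the brightest probe turned to below 0 with median centring and with spike-in scaling. Kif12, the remaining gene of no set role, had 1 channel of 4 above background at one probe and 0 at the other.

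Among ciliary kinesins, Kif9 and Kif27, both motors linked to motile cilia, were measured. Kif9 had -0.28 and 0.26 and Kif27 -0.22 and 0.05, and both changed sign with the dye. Kif24, which restrains growth of the primary cilium, was well above background in 3 of 4 channels. Genes of ependymal cilia lay below 0 in the same RNA: 8 of 8 measured members of that marker list, out of 10, were below 0 on both arrays. The share over genes with a symbol was 26.4%. The list had a median of -0.19, with Dynlrb2 at -0.29 and Tekt1 at -0.23. The part of ependymal RNA in the kinesin values was not tested. The 21 measured genes of intraflagellar transport, the traffic that Kif3a and Kif3b drive, had a median of -0.01, from Ift74 at -0.15 to Ift52 at 0.15. Of these, 3 were below 0 on both arrays and 6 above, beside 26.4% and 14.3% of genes with a symbol.

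Partners of the motors also differed little. Their counts below and above 0 on both arrays stand beside 26.4% and 14.3% of genes with a symbol. Of 9 measured kinesin light chains, adaptor subunits and kinesins named outside the rule, 3 were below 0 on both arrays (Kifc5b, Klc4 and Cenpe), 0 above, and the median was -0.06. Kifc5b, of the minus-end-directed spindle motors, had -0.32 and -0.14, and the light chain gene Klc4 -0.19 and -0.11. Klc1, the main neuronal light chain gene, had 0.64 and -0.54, brighter in Cy5 on both arrays. Its log2 brightness was 16.6, and 117 of 129 genes with a symbol above 16 were likewise brighter in Cy5 on both arrays. This probe therefore gives no direction for the diet. Of 19 measured cargo adaptors 4 were below and 3 above 0 on both arrays (median -0.01), with Dlg4, which encodes the postsynaptic scaffold PSD-95, at -0.20 and Ppfia2, a liprin that links Kif1a to cargo, at 0.13. Dynein and dynactin, the motor complex that runs the other way along axons, had 20 measured genes with a median of 0.0098, of which 2 lay below 0 and 7 above it on both arrays, with Dync1li2 at 0.16 and Bicd1 at 0.13. The 15 measured genes of the axonal cytoskeleton had a median of 0.0088, with Map1b, a microtubule-binding protein of growing axons, at 0.32 (0.40 and 0.23). None of the genes in these 4 lists passed 1.5-fold on each array.

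Markers of the tissue showed hippocampal neurons in both RNAs, as 10 of 12 listed genes were measured, with a median of 0.03 and 3 above and 0 below 0 on both arrays. Over genes with a symbol, 14.3% were above and 26.4% below 0 on both arrays. Marker lists of neighbouring tissues ranged more widely. Medians were -0.21 for 8 striatal, -0.15 for 9 thalamic and habenular and -0.07 for 9 choroid plexus genes, and 0.19 for 10 meningeal and 0.52 for 6 pituitary genes. The 5 blood genes went both ways: S100a9 and S100a8, of neutrophils, had means of 1.27 and 0.65 and were over 1.5-fold higher on each array, while the red cell genes Hbb-bt, Hba-a1 and Alas2 had -0.53, -0.46 and -0.29. Medians of glia and vessels lay between -0.05 and -0.03, and the 8 immature neuron markers had -0.05, with 4 below and 1 above 0 on both arrays. The part of tissue composition in the kinesin values was not tested.

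Scaling set the sign of several members. The mitotic median stayed below 0 under each of 10 other settings that used both arrays. It ranged from -0.51 with spike-in scaling to -0.02 with median centring. Not all 10 were separate checks. The scanner's and the deposited ratios gave the same median, -0.30. A filter asking for at least 1 RNA above background left it at -0.12. Spike-in scaling moved all ratios of an array by the same amount. Kif20a and Kif4 stayed below 0 in all 10 as single genes. Of the 22 measured kinesins 10 kept their sign in all 10, among them 2 of 6 mitotic and 7 of 13 transport genes. Kif11 and Kif23 were above 0 with median centring, at 0.04 and 0.03. Spike-in scaling moved the median of all genes and transcripts to -0.40, and the members moved down with it. Median centring moved that median to -0.10, but the members did not move together. The transport median fell to -0.18, while the mitotic median rose from -0.12 to -0.02.

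**Figure D5:**
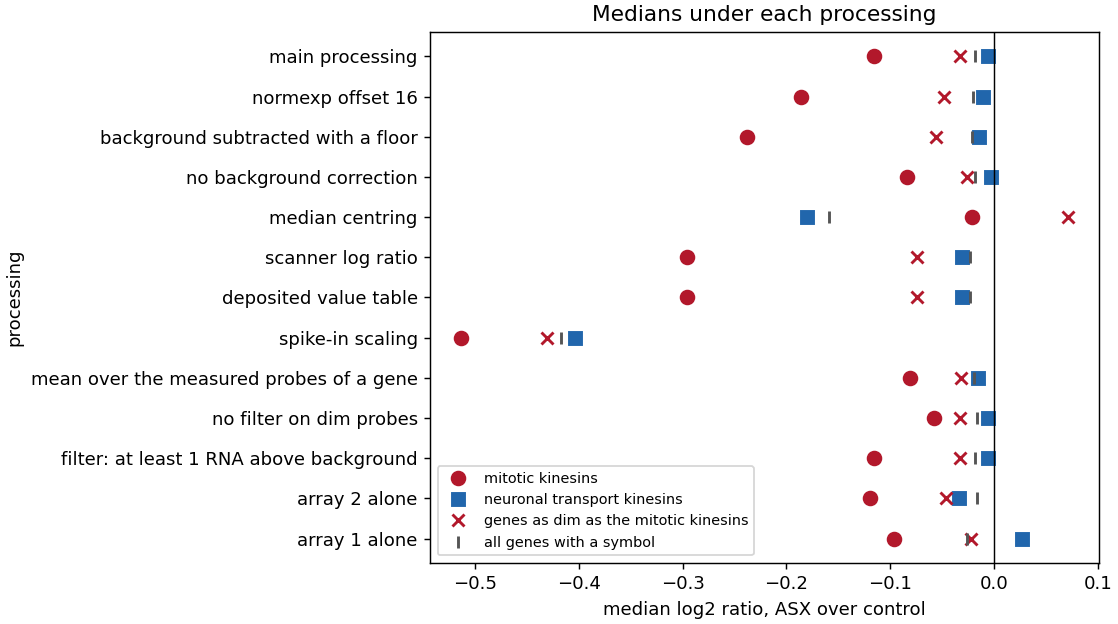
Median log2 ratio of ASX over control (horizontal axis) under each processing (rows) for mitotic kinesins (circles), neuronal transport kinesins (squares), genes with a symbol as dim as the mitotic kinesins other than Kif22 (crosses) and all genes with a symbol (bars). The mitotic median lies left of the equally dim genes in every row, and left of the transport median in every row but median centring.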

How the data were processed

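Members, role lists and comparisons were chosen with earlier results of these data known. Agilent Feature Extraction 11.0.1.1 quantified both arrays, per the submitters' processing notes and the file headers. The deposited intensities are the median brightness of a spot and of its local background per dye, not normalized; the processed intensities had been background-subtracted and dye-normalized by the scanner software. The deposited log ratios, and the series' value table, are log10 of Cy5 over Cy3, not turned for the dye swap. The value table differs by at most 5e-08 from log10 of the processed Cy5 over Cy3 intensities.

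Median signals were corrected with limma 3.58.1 (R 4.3.3) using the normexp method (offset 50), then loess was applied within each array, with control spots (1639 of 45018) at weight 0 and 3 outlier spots left out; none was saturated. Ratios were turned to ASX over control and spots of a probe averaged. Accessions were named through a RefSeq table of GRCm38.p6: 23374 of 41174 probes matched 1 symbol, 17800 none and 0 several. The size rule was 1.5-fold in one diet direction on each array; no p-value is given with 1 replicate. The offset draws ratios of dim probes toward 0. The steps were also run on simulated dye swaps. The changes added there were larger than the mean of any kinesin probe. Those runs therefore do not show how well differences as small as those of the kinesins are recovered. Text gives arrays' values for each measured member of 3 roles, and, of each list, genes among the 4 of largest absolute mean; Kifap3, Klc1 and Alas2, outside these, were chosen after their values were seen.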

Additional observations from a re-analysis of the deposited data

How the results depend on the processing

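Where a value rests on both arrays, the mitotic kinesin median of -0.12 became -0.19 with a normexp offset of 16, -0.24 with floored background subtraction, -0.084 with no background correction, -0.022 with median centring, -0.30 with the scanner's or the deposited table's ratios, -0.51 with spike-in scaling, -0.081 with the mean over probes and -0.058 with no filter on dim probes. The mitotic minus transport difference of -0.11 became -0.18, -0.22, -0.081, 0.16, -0.27, -0.066 and -0.052 in the same order without spike-in scaling. The transport median was -0.18 with median centring and -0.40 with spike-in scaling, and the ciliary median -0.45 with the latter, which also put 0 kinesins above and 21 below 0 on both arrays. From array 1 or array 2 alone, the mitotic median was -0.10 and -0.12, the difference -0.12 and -0.09, the transport median 0.03 and -0.03 and the ciliary median -0.25 and 0.15; 9 and 7 kinesins were above 0, 13 and 15 below, and Kif5a alone passed 1.5-fold, 1 higher on array 1 and 1 lower on array 2. The 1.5-fold counts were 0 with thresholds of 1.2 and 1.3 as well. The causes were not tested. No paired analysis was possible because the arrays were treated as 1 replicate of the diet comparison. Of all spots other than controls, 75.8 to 78.2% stood well above background, by array and RNA. The mitotic kinesins other than Kif22 were dim and had 1 spot per probe, which limits what they can show.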
